A study of Danio rerio with 24 samples.

Results

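The wildtype (WT) response to the start of the light phase was measured by comparing larvae collected at ZT+2.5 with larvae collected at ZT0, where Zeitgeber time (ZT) counts hours from the onset of light in the incubator. The comparison used 8 of the 24 RNA-seq samples of the series, namely all 4 WT pools of ZT0 and all 4 WT pools of ZT+2.5, chosen by their labels alone. Each pool held 6 whole larvae at 5 days post-fertilization, raised in embryo medium in an incubator with a light/dark cycle, and the labels give no treatment for any group. The WT larvae were controls with the same grandparents as homozygous klf9-/- mutants, which came from the AB strain. The other 16 samples were WT larvae at ZT-3 and klf9-/- larvae at all 3 times, and they enter below only where named. The larvae at ZT+2.5 had been in light for 2.5 h, stood 2.5 h later in their circadian cycle and were 2.5 h older than those at ZT0, and these differences cannot be told apart. Because whole larvae were pooled, a lower number of cells of a type also cannot be told apart from less RNA per cell.

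Zebrafish tissues are directly sensitive to light, and most of their cells hold a circadian clock that light can set. The clock is a feedback loop in which Clock and Bmal (Arntl) proteins activate genes for Period and Cryptochrome repressors, and Rev-erb (Nr1d) and Ror receptors control the activators in turn. In zebrafish, per2 and cry1a are known as genes that light induces through D-box promoter elements bound by Tef-type factors, and several DNA repair genes are known to be induced in the same way. Cortisol, whose level also follows a daily rhythm, acts through the glucocorticoid receptor on further genes, among them fkbp5 and klf9.

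Library totals were 49713549 to 59393036 expected counts at ZT0 and 51928841 to 56331583 at ZT+2.5, and 25410 to 25583 genes had counts in each sample. Within each group the 4 samples were spread along the first principal component of the series (PC1), which was recomputed here. The study traced its own PC1 largely, and perhaps wholly, to uneven waiting of the lysates on ice during extraction. The share of variance it gave for that PC1 was larger than here, and how far the scores differ is not known. PC1 scores went from -1.44 to 0.72 SD at ZT0 and from -1.62 to 0.85 SD at ZT+2.5, and by replicate number the scores of the groups ran in opposite order. The group means were -0.46 and -0.33 SD (exact permutation test, two-sided, p = 0.886), and PC1 was a covariate of every test unless stated. Levels are normalised read counts scaled to library size (CPM), as mean ± SD over the 4 pools of a group, and were not corrected for PC1. CPM is not divided by gene length, so levels are compared between samples only, never between genes. Of 22524 genes tested, 414 were higher (1.84%) and 290 lower (1.29%) at ZT+2.5 in edgeR's quasi-likelihood test. The thresholds, which also decide where "rose" and "fell" are used below, were 0.1 for the Benjamini-Hochberg adjusted p and 0.5 for the size of the log2 fold change. At the adjusted p alone, 1646 genes were higher (7.31%) and 1400 lower (6.22%). All 4 samples of ZT+2.5 lay above all 4 of ZT0 for 1459 genes (6.48%) and below them for 1049 (4.66%). The median log2 fold change of all tested genes was -0.01, with 10923 genes above 0 and 11601 below. Counts of calls or signs in the lists below are to be read beside these shares of all genes. All lists were chosen with earlier results of these data known, so these counts are descriptive and no test. The plot of fold change against level shows that the larger rises were found across the range of levels.

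**Figure D1:**
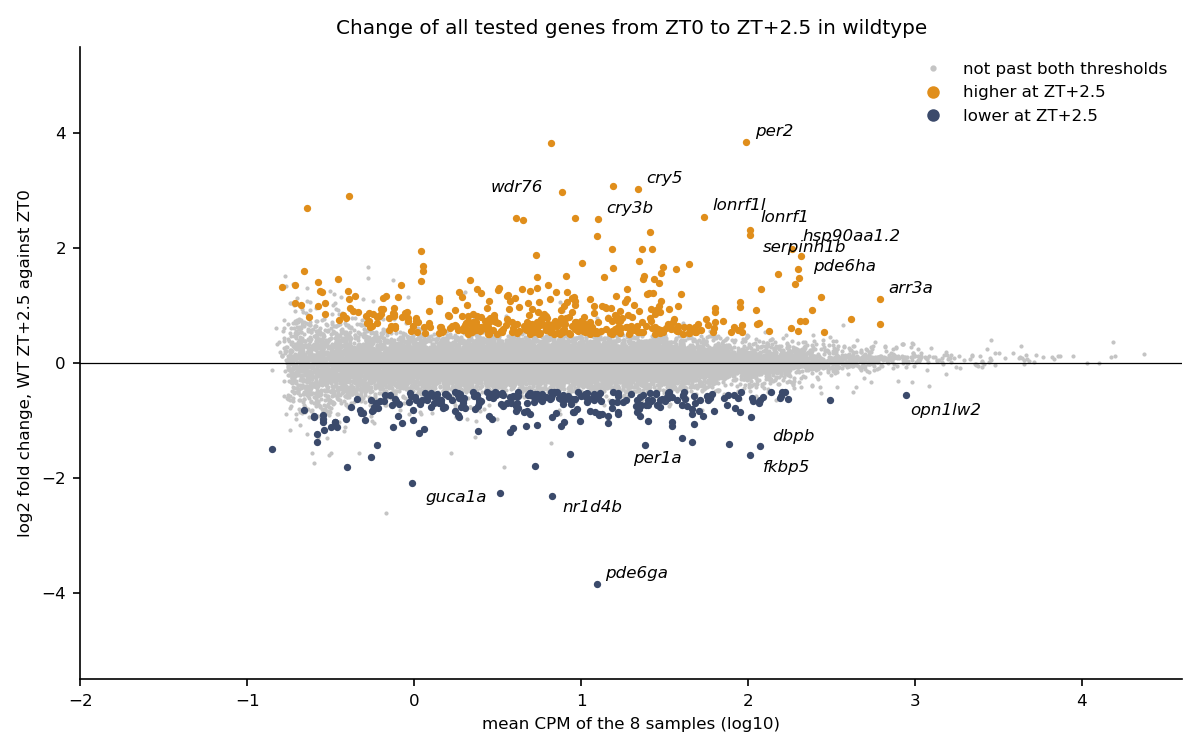
Log2 fold change of each of the 22524 tested genes from WT ZT0 to WT ZT+2.5 (vertical axis) against its mean CPM over the 8 samples (horizontal axis, log10). Orange points are the 414 genes past both thresholds that were higher at ZT+2.5, blue points the 290 that were lower, and grey points the rest. The highest and lowest points are per2 (3.84) and pde6ga (-3.85).

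The Period and Cryptochrome repressors moved in both directions, and 5 of 10 tested members rose and 1 fell (median log2 fold change 0.59). The largest rise of the whole comparison was in per2 (ENSDARG00000034503), a Period gene. Its levels were 14.0, 11.1, 11.3 and 14.3 CPM in the ZT0 samples and 190, 191, 175 and 173 CPM in the ZT+2.5 samples. Every ZT+2.5 sample was thus more than 10 times any ZT0 sample, and the mean went from 12.7 ± 1.70 to 183 ± 9.65 CPM, a log2 fold change of 3.84 (SE 0.090, adjusted p = 1.87e-08). The Cryptochrome gene cry1a (ENSDARG00000045768) had 68.9, 63.9, 68.7 and 77.7 CPM at ZT0 and 180, 169, 169 and 165 CPM at ZT+2.5. The groups did not overlap, and the log2 fold change was 1.28 (SE 0.051, adjusted p = 2.97e-07). The related cry1b (ENSDARG00000011583) rose less, from 19.7 ± 2.79 to 33.1 ± 3.01 CPM (log2 fold change 0.73, adjusted p = 0.000427).

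The larger rises among the cryptochromes were in the cry3 pair, vertebrate-type cryptochromes of the clock. Levels of cry3a (ENSDARG00000069074) were 94.7, 98.1, 93.2 and 98.8 CPM at ZT0 and 320, 322, 284 and 282 CPM at ZT+2.5. The fold, taken from the fitted log2 fold change, was 3.11, far beyond the spread of either group (log2 fold change 1.64, SE 0.048, adjusted p = 4.17e-08). For cry3b (ENSDARG00000091131) the levels were 4.33, 3.30, 4.05 and 3.37 CPM at ZT0 and 23.9, 21.9, 20.3 and 19.8 CPM at ZT+2.5, a fold of 5.65 (log2 fold change 2.50, SE 0.099, adjusted p = 2.97e-07). In contrast to per2, the Period gene per1a (ENSDARG00000056885) fell, from 66.3, 61.9, 64.3 and 72.9 CPM to 30.9, 20.4, 26.3 and 25.4 CPM. Its log2 fold change was -1.37 (SE 0.107, adjusted p = 0.000157), again with no overlap. The remaining members were below the fold threshold. They were per1b at 194 ± 11.4 and 158 ± 9.23 CPM, per3 at 186 ± 14.4 and 241 ± 15.9 CPM, cry2 at 55.1 ± 3.17 and 59.5 ± 2.15 CPM and cry4 at 9.97 ± 1.62 and 13.7 ± 0.86 CPM, each at ZT0 and ZT+2.5. Of these, cry2 was the 1 member without an adjusted p under 0.1 (adjusted p = 0.225), while cry4 had a log2 fold change of 0.46 (adjusted p = 0.0247).

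Of the 6 clock activators, 2 rose and none fell, against the 1.84% of all genes that rose. The Clock relative npas2 (ENSDARG00000016536) went from 2.92 ± 0.37 to 6.88 ± 0.91 CPM (log2 fold change 1.25, SE 0.078, adjusted p = 8.73e-06). The Bmal gene arntl1b (ENSDARG00000035732) went from 7.04 ± 0.78 to 11.6 ± 1.09 CPM (log2 fold change 0.71, adjusted p = 0.00123). Its copy arntl1a had 10.8 ± 0.61 CPM at ZT0 and 15.035 ± 1.18 CPM at ZT+2.5, a log2 fold change of 0.46 that was under the fold threshold. The core partner clocka, at 10.326 ± 0.95 and 9.86 ± 1.03 CPM, did not pass the test (adjusted p = 0.663), and clockb had the lowest log2 fold change of the list, at -0.26.

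Among 10 nuclear receptors of the Rev-erb and Ror families, 3 Rev-erb genes fell and 1 Ror gene rose. The repressor gene nr1d4b (ENSDARG00000059370) had 9.82, 11.8, 12.1 and 10.301 CPM at ZT0 and 2.59, 2.78, 2.02 and 1.72 CPM at ZT+2.5 (log2 fold change -2.31, SE 0.123, adjusted p = 2.86e-06). Its level at ZT-3 was already far higher, at 83.3 ± 11.1 CPM. The paralog nr1d4a also fell (log2 fold change -0.65, adjusted p = 0.0102). For nr1d2a (ENSDARG00000003820) the ZT0 samples had 64.8, 74.0, 53.9 and 83.3 CPM and the ZT+2.5 samples 56.1, 46.4, 40.4 and 39.0 CPM, and the groups overlapped in 1 sample each (log2 fold change -0.64, adjusted p = 0.0152). The activator gene rorca (ENSDARG00000057231) rose from 10.96 ± 0.37 to 26.8 ± 1.74 CPM (log2 fold change 1.28, SE 0.062, adjusted p = 1.23e-06).

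The PAR bZIP factors bind D-box elements and activate them, whereas Nfil3 proteins bind similar elements and repress. Of 9 tested genes of these families, 2 rose and 3 fell. The activator gene tefa (ENSDARG00000039117) had 100.3, 106, 113 and 106 CPM at ZT0 and 318, 285, 290 and 293 CPM at ZT+2.5 (log2 fold change 1.47, SE 0.049, adjusted p = 8.07e-08). Its copy tefb went the other way, from 105 to 69.3 CPM (log2 fold change -0.61, adjusted p = 4.31e-05). Both dbp genes also fell. Levels of dbpb (ENSDARG00000057652) were 175, 165, 168 and 179 CPM at ZT0 and 69.1, 58.4, 66.1 and 61.4 CPM at ZT+2.5 (log2 fold change -1.44, SE 0.054, adjusted p = 2.345e-07), and the level at ZT-3 was 280 ± 38.1 CPM. Levels of dbpa (ENSDARG00000063014) were 106 ± 1.75 and 62.2 ± 2.73 CPM (log2 fold change -0.78, adjusted p = 3.37e-06). The repressor gene nfil3-6 (ENSDARG00000087188) had 7.79, 5.79, 4.36 and 10.7 CPM at ZT0 and 12.5, 14.085, 19.01 and 16.4 CPM at ZT+2.5. Its rise was near the threshold (log2 fold change 1.11, SE 0.302, adjusted p = 0.0853) and was not called in 10 of 17 alternative analyses, among them each fit that left out 1 sample except WT ZT0 replicate 4 (0.93 to 1.21 where it was lost). Of the 4 Bhlhe and Ciart repressors, bhlhe41 (ENSDARG00000041691) fell from 114 ± 9.13 to 63.8 ± 3.89 CPM (log2 fold change -0.84, SE 0.060, adjusted p = 2.34e-05), and bhlhe40 had the highest log2 fold change, at 0.29.

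**Figure D2:**
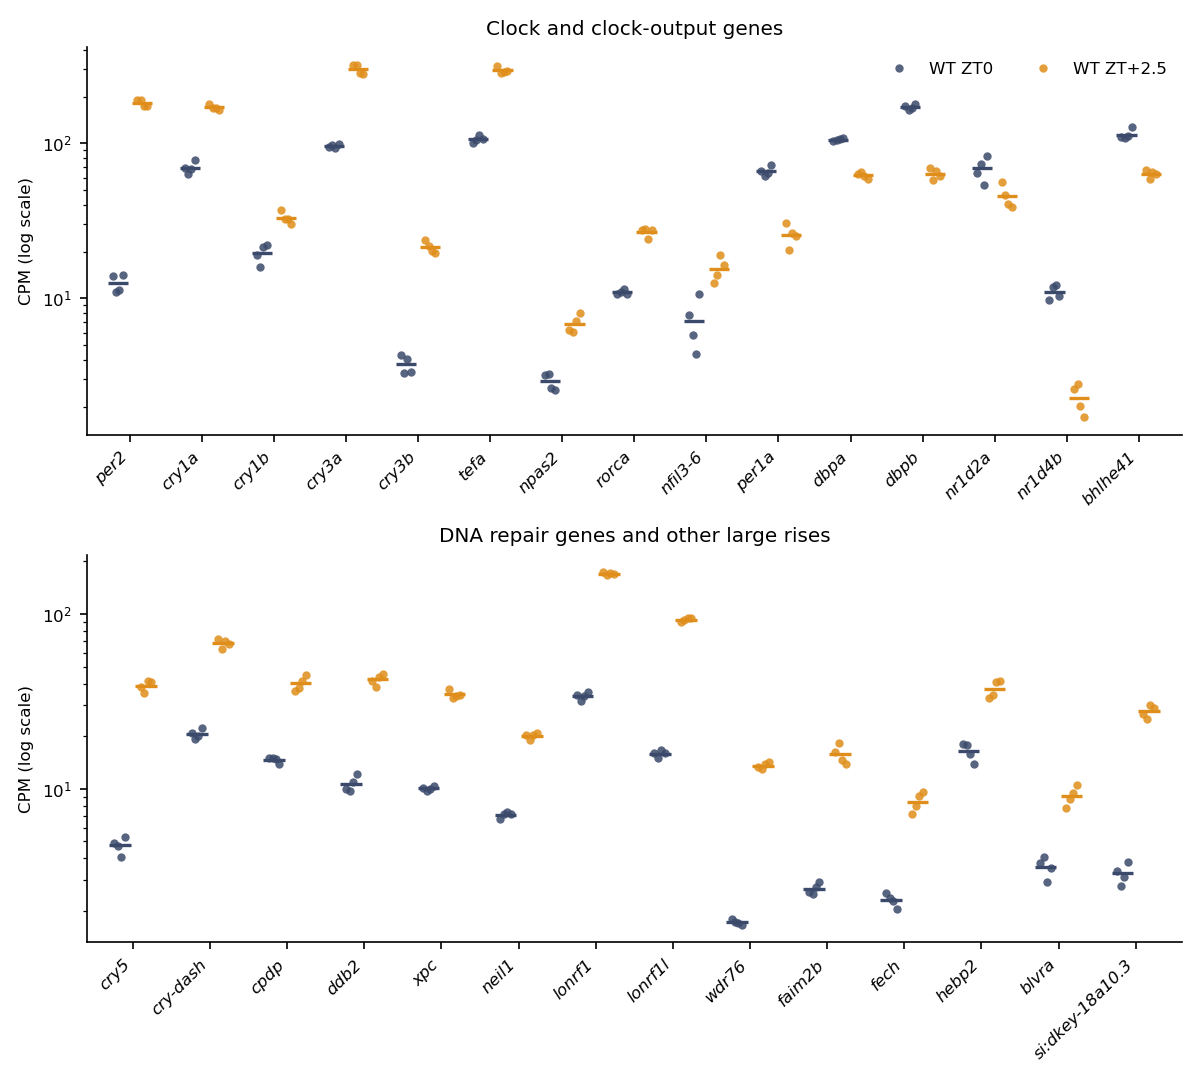
Level of each gene in CPM (log axis) in the 4 WT pools of ZT0 (blue) and of ZT+2.5 (orange), with replicates 1 to 4 from left to right and a bar at the group mean. The upper panel shows clock and clock-output genes, where nr1d2a is the gene with overlapping groups, and the lower panel shows DNA repair genes and other large rises, where all groups are apart.

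Of 12 tested genes in a list of light-regulated DNA repair, 6 rose, none fell and 6 were not called (median log2 fold change 0.92, against -0.01 for all genes). Those that rose were enzymes that use light energy to reverse DNA damage directly, and factors of nucleotide and base excision repair. The photolyase gene cry5 (ENSDARG00000019498), which encodes the enzyme for pyrimidine-pyrimidone photoproducts, had 4.88, 4.74, 4.07 and 5.31 CPM at ZT0 and 38.1, 35.1, 41.5 and 40.6 CPM at ZT+2.5. Its fold of 8.17 exceeded the spread in either group by far (log2 fold change 3.03, SE 0.084, adjusted p = 3.03e-08). The photolyase gene for cyclobutane pyrimidine dimers, cpdp (ENSDARG00000099519), had 15.02, 14.9, 14.8 and 13.9 CPM at ZT0 and 36.5, 37.8, 41.6 and 44.7 CPM at ZT+2.5 (log2 fold change 1.46, SE 0.048, adjusted p = 8.07e-08). The third gene of this family, cry-dash (ENSDARG00000002396), rose from 20.6 ± 1.26 to 68.0 ± 3.99 CPM (log2 fold change 1.72, adjusted p = 8.07e-08).

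The damage sensors of nucleotide excision repair rose as well. For ddb2 (ENSDARG00000041140), a subunit of the complex that binds ultraviolet lesions, the samples had 9.95, 9.70, 10.9 and 12.1 CPM at ZT0 and 41.4, 38.2, 43.6 and 45.7 CPM at ZT+2.5 (log2 fold change 1.98, SE 0.083, adjusted p = 4.18e-07). For xpc (ENSDARG00000039754), which recognizes distorted DNA, they had 10.1, 9.72, 9.96 and 10.4 CPM and 37.2, 33.1, 33.9 and 34.4 CPM (log2 fold change 1.78, SE 0.049, adjusted p = 3.03e-08). In both genes the ZT+2.5 samples were all above 3 times the level of any ZT0 sample. The base excision glycosylase gene neil1 (ENSDARG00000018061) rose from 7.11 ± 0.30 to 20.1 ± 0.86 CPM (log2 fold change 1.497, adjusted p = 2.78e-07). The next factor of nucleotide excision repair, xpa, had a log2 fold change of 0.23 (adjusted p = 0.172), and the lowest value of the list was that of the glycosylase gene ogg1, at -0.32 (adjusted p = 0.158). In a wider list of 57 other DNA repair genes, put together after values had been seen and therefore only descriptive, 11 rose and none fell (median 0.22). Of all tested genes, 1.84% rose and 1.29% fell. Examples of the 11 were ercc6, which acts when polymerases stall at lesions (log2 fold change 0.94), the single-strand break scaffold xrcc1 (0.58) and the recombination gene rad51b (1.01). Others were close to the fold threshold, namely fancm (0.53), hltf (0.51) and mcm8 (0.51). Each of them lost its call in 5 of 17 alternatives, including 4 fits that left out 1 sample (0.43 to 0.51).

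The smallest p-values of the comparison belonged to lonrf1 and lonrf1l, which encode proteins with a RING finger and a Lon-type domain. Levels of lonrf1 (ENSDARG00000075048) were 34.5, 31.9, 34.0 and 35.7 CPM at ZT0 and 173, 168, 171 and 169 CPM at ZT+2.5. The fold was 4.99, and the range within each group was narrow (log2 fold change 2.32, SE 0.046, adjusted p = 3.72e-09). Levels of lonrf1l (ENSDARG00000078567) were 15.96, 14.9, 16.6 and 15.97 CPM and 89.6, 92.5, 94.5 and 94.6 CPM (log2 fold change 2.55, SE 0.051, adjusted p = 3.72e-09). Similarly, wdr76 (ENSDARG00000053554), which encodes a WD-repeat protein, rose from 1.72 ± 0.050 to 13.6 ± 0.53 CPM (log2 fold change 2.98, adjusted p = 6.66e-09). The gene faim2b (ENSDARG00000105362), named for a family of inhibitors of Fas-triggered cell death, rose from 2.69 ± 0.20 to 15.7 ± 1.90 CPM (log2 fold change 2.53, adjusted p = 4.87e-08). PLEKHB1 (ENSDARG00000063519), which encodes a pleckstrin-homology protein, rose from 6.08 ± 1.0996 to 24.5 ± 3.97 CPM (log2 fold change 1.98, adjusted p = 3.43e-07).

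Genes without an assigned name were among the changed genes too. Provisional symbols, taken from clone or sequence names, made up 123 of the 414 genes that rose (29.7%) and 91 of the 290 that fell (31.4%), against 5139 of all 22524 tested genes (22.8%). Among the 10 smallest p-values was that of si:ch1073-390k14.1 (ENSDARG00000088549), at 4.44 ± 0.30 CPM at ZT0 and 20.6 ± 0.50 CPM at ZT+2.5 (log2 fold change 2.21, adjusted p = 4.17e-08). Another, si:dkey-18a10.3 (ENSDARG00000090814), had 3.40, 2.79, 3.13 and 3.80 CPM at ZT0 and 26.7, 25.0, 30.3 and 29.0 CPM at ZT+2.5 (log2 fold change 3.08, SE 0.098, adjusted p = 6.80e-08). A gene that was chosen after its values were seen, si:dkey-104n9.1 (ENSDARG00000093042), rose almost as much as per2, from 0.86 ± 0.25 to 12.3 ± 1.06 CPM (log2 fold change 3.83, adjusted p = 1.09e-07). The most abundant such genes that rose were CABZ01044281.1 (164 ± 24.01 and 277 ± 35.6 CPM), si:ch211-195b13.1 (70.7 ± 8.92 and 113 ± 16.3 CPM) and zgc:56235 (75.2 ± 3.14 and 110 ± 2.44 CPM). The most abundant that fell were zgc:193593 (64.7 ± 5.96 and 36.6 ± 3.74 CPM), si:ch211-198m17.1 (54.4 ± 17.8 and 31.6 ± 10.4 CPM) and si:dkey-28e7.3 (48.4 ± 4.29 and 34.5 ± 3.45 CPM). The fall of si:ch211-198m17.1, whose groups overlapped, and that of si:dkey-28e7.3 were not called without PC1. The former was also lost without WT ZT+2.5 replicate 4 (-0.72), and the latter without WT ZT0 replicate 1 or WT ZT+2.5 replicate 3 or 4 (-0.50 to -0.43).

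Heme is the iron-porphyrin cofactor of globins, cytochromes and catalase. In a list of 26 genes of its synthesis, breakdown and binding, also put together after values had been seen, 7 rose and 2 fell. The gene of the last enzyme of heme synthesis, fech (ENSDARG00000003462), had 2.54, 2.38, 2.29 and 2.06 CPM at ZT0 and 7.16, 7.99, 9.12 and 9.58 CPM at ZT+2.5 (log2 fold change 1.88, SE 0.076, adjusted p = 3.28e-07). At the other end of the pathway, blvra (ENSDARG00000059857), whose product makes bilirubin from biliverdin, rose from 3.58 ± 0.49 to 9.12 ± 1.18 CPM (log2 fold change 1.36, adjusted p = 2.81e-05). The heme-binding genes hebp2 (ENSDARG00000042630; 16.4 ± 1.88 and 37.4 ± 4.35 CPM) and soul5 (16.1 ± 1.73 and 42.5 ± 2.57 CPM) rose with log2 fold changes of 1.21 and 1.40, and the porphyrin-binding mitochondrial gene tspo rose with a log2 fold change of 1.196. Also among the 7 that rose were abcg2a (log2 fold change 0.68) and abcg2b (1.01). Their groups overlapped, and both lost their call without PC1 (adjusted p = 0.144 and 0.102). The 2 genes that fell were the mitochondrial carrier gene slc25a38a (log2 fold change -0.83) and the heme oxygenase gene hmox1a (log2 fold change -0.54, adjusted p = 0.0558), whose fall was not called in 10 of 17 alternatives, including without replicate 2 or 4 of either group (-0.51 to -0.44).

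Heat shock genes formed the list with the largest share of rises in the main analysis. Their products are chaperones that bind unfolded proteins, and their transcription is driven by Hsf1. Of 28 tested genes of the heat shock and cold-inducible list, 16 rose and none fell (median log2 fold change 0.71). The count of 16 was 14 without WT ZT+2.5 replicate 4 and 13 with a replicate block in place of PC1. In both of these fits, 6 of the 12 light-regulated DNA repair genes rose. The cytosolic chaperone gene hsp90aa1.2 (ENSDARG00000024746) had 82.2, 67.4, 59.6 and 85.4 CPM at ZT0 and 302, 291, 299 and 279 CPM at ZT+2.5. The fold of 3.96 was far beyond the spread (log2 fold change 1.98, SE 0.111, adjusted p = 2.01e-05). Its neighbour in name, hsp90aa1.1 (ENSDARG00000010478), had 123, 91.7, 86.2 and 123 CPM and 335, 209, 310 and 251 CPM, with wider spread and still no overlap (log2 fold change 1.38, SE 0.193, adjusted p = 0.00834). Levels of serpinh1b (ENSDARG00000019949), which encodes the collagen chaperone Hsp47, were 35.7, 37.3, 29.2 and 42.6 CPM and 177, 161, 172 and 171 CPM (log2 fold change 2.23, SE 0.102, adjusted p = 3.89e-06). The copy serpinh1a rose less (log2 fold change 0.74).

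The inducible Hsp70 genes rose together. They are near-identical copies between which the read assignment is uncertain, so their sum is given first. The summed level of hsp70l, hsp70.1, hsp70.2 and hsp70.3 was 60.04, 43.3, 54.2 and 51.0 CPM at ZT0 and 155, 127, 177 and 181 CPM at ZT+2.5, a fold of 3.07. Each of the 4 rose, with log2 fold changes of 1.51 to 1.68, and hsp70l (ENSDARG00000055723) alone went from 14.8 ± 3.24 to 47.1 ± 6.72 CPM (adjusted p = 0.000642). The largest rise of the list was in hspa1b (ENSDARG00000056210), at 1.56, 1.09, 1.47 and 1.31 CPM at ZT0 and 10.0, 5.39, 7.99 and 7.21 CPM at ZT+2.5 (log2 fold change 2.48, SE 0.198, adjusted p = 0.000134). The co-chaperone genes dnajb1b (1.05), dnaja1 (0.94) and dnajb1a (0.74) and the Hsp110 gene hsph1 (0.98) rose with them, each value a log2 fold change. The gene of the regulator itself, hsf1, had 31.4 ± 1.52 CPM at ZT0 and 28.8 ± 0.28 CPM at ZT+2.5 (adjusted p = 0.132). The lowest value of the list was that of cirbpb, which encodes a cold-inducible RNA-binding protein, with 1378 ± 38.8 and 1049 ± 84.6 CPM (log2 fold change -0.41, adjusted p = 0.000866).

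Genes of the endoplasmic reticulum, where secreted proteins fold, had fewer calls. Of 38 genes of that list, 4 rose and 1 fell (median log2 fold change 0.19), and 1 rose without WT ZT0 replicate 3 or without WT ZT+2.5 replicate 2. The lectin chaperone gene calr rose from 109 to 159 CPM (log2 fold change 0.55, adjusted p = 0.00112). The chaperone genes hsp90b1 (0.55) and pdia4 (0.55) and the oxidase gene ero1b (0.51) were close to the fold threshold, and all 3 lost their call without PC1. Without single samples, hsp90b1 lost it without WT ZT0 replicate 3 or WT ZT+2.5 replicate 2 or 4 (0.43 to 0.56), pdia4 without WT ZT0 replicate 3 or WT ZT+2.5 replicate 2 (0.45 to 0.49) and ero1b without replicate 2 or 3 of either group (0.47 to 0.50). The glutathione-degrading enzyme gene chac1 fell (log2 fold change -0.51, adjusted p = 0.0237), which was not called without WT ZT0 replicate 4 (-0.46), without WT ZT+2.5 replicate 2 (-0.41) or without WT ZT+2.5 replicate 4 (-0.48).

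Phototransduction, the signalling of photoreceptors, starts with an opsin, which activates transducin and the Pde6 phosphodiesterase, and is ended by arrestins, while Guca proteins restore cyclic GMP. Of 36 tested phototransduction genes, 5 rose, 3 fell and 28 were not called (median log2 fold change 0.02). The largest fall of the comparison was in pde6ga (ENSDARG00000056791), which encodes an inhibitory gamma subunit of Pde6 of the rod type. Its levels were 25.5, 16.5, 22.9 and 28.2 CPM at ZT0 and 1.79, 1.67, 1.51 and 1.58 CPM at ZT+2.5. The lowest ZT0 sample was thus more than 9 times the highest ZT+2.5 sample (log2 fold change -3.85, SE 0.166, adjusted p = 4.39e-06). In contrast, pde6ha (ENSDARG00000102558), a gamma subunit gene of the cone type, rose, from 75.6, 79.8, 79.4 and 122 CPM to 317, 305, 328 and 342 CPM (log2 fold change 1.86, SE 0.150, adjusted p = 0.000497). Likewise, the guanylate cyclase activator gene guca1a (ENSDARG00000010454) fell from 6.23, 4.57, 5.27 and 5.4995 CPM to 1.77, 1.15, 1.03 and 0.71 CPM (log2 fold change -2.27, SE 0.196, adjusted p = 0.000145). The related guca1b (ENSDARG00000013393) rose from 2.14, 2.19, 2.60 and 3.17 CPM to 6.99, 7.09, 5.76 and 5.27 CPM (log2 fold change 1.28, SE 0.084, adjusted p = 1.16e-05).

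The rise of a further activator gene, guca1d (log2 fold change 0.79, adjusted p = 0.0943), was lost in 12 of 17 alternatives, among them each fit that left out 1 sample except WT ZT0 replicate 4 (0.63 to 0.88).

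Arrestin genes rose together. The cone arrestin gene arr3a (ENSDARG00000056511) had 339, 356, 406 and 445 CPM at ZT0 and 946, 915, 799 and 732 CPM at ZT+2.5, with no overlap (log2 fold change 1.11, SE 0.046, adjusted p = 3.66e-07). Its copy arr3b (log2 fold change 0.56) and the S-antigen gene sagb (0.92) also rose. Opsin genes gave a single call. Of 7 tested visual opsins, only opn1lw2 (ENSDARG00000044861), a red-sensitive cone opsin gene, passed both thresholds, with 958, 1025, 1092 and 1086 CPM at ZT0 and 840, 773, 665 and 623 CPM at ZT+2.5 (log2 fold change -0.55, SE 0.049, adjusted p = 0.000116). Its near-identical copy is opn1lw1, which had 9.49 ± 3.66 and 8.15 ± 1.48 CPM, so that reads may have been split between them. The rod opsin gene rho had 1400.1 ± 185 and 1570 ± 194 CPM (log2 fold change 0.14, adjusted p = 0.151). The summed level of 5 photoreceptor markers was 3685 to 4503 CPM at ZT0 and 3498 to 4381 CPM at ZT+2.5, and none of the 5 was called.

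In the pineal gland, aanat2 encodes the enzyme that sets the nightly rhythm of melatonin synthesis. Levels of aanat2 (ENSDARG00000079802) were 2.12, 2.40, 2.74 and 2.52 CPM at ZT0 and 1.42, 1.08, 1.33 and 1.28 CPM at ZT+2.5 (log2 fold change -0.94, SE 0.128, adjusted p = 0.00167), after 7.41 ± 0.93 CPM at ZT-3. Of the 8 genes of melatonin synthesis, the retinal relative aanat1 (ENSDARG00000036567) was the other one that fell (log2 fold change -0.70, adjusted p = 0.00431), and none rose. The highest value was that of the methyltransferase gene asmt2, with a log2 fold change of 0.50 just under the threshold (adjusted p = 0.00284).

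Retinoid genes, which supply the chromophore of opsins and the substrate of retinoic acid, were described with a list of 41 genes of vitamin A and carotenoid handling that was put together after values had been seen. Of these, 11 rose and none fell (median log2 fold change 0.18). The retinyl ester synthase gene lratb.2 (ENSDARG00000077652) had 11.4, 13.1, 11.7 and 13.025 CPM at ZT0 and 37.7, 35.9, 35.4 and 31.9 CPM at ZT+2.5 (log2 fold change 1.51, SE 0.059, adjusted p = 2.92e-07). Retinol carriers rose less. They were rbp4 (ENSDARG00000101199; 475 ± 41.4 and 755 ± 132 CPM, log2 fold change 0.68), rbp4l (0.93) and the photoreceptor matrix carrier rbp3 (0.73). The carotenoid-cleaving enzyme gene bco1l (ENSDARG00000103659) had 4.98, 3.63, 4.64 and 3.37 CPM at ZT0 and 6.09, 6.69, 11.5 and 16.01 CPM at ZT+2.5. Its values at ZT+2.5 differed widely between samples, in the reverse order of their PC1 scores (log2 fold change 1.24, SE 0.151, adjusted p = 0.0014).

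Of 23 tested glucocorticoid targets and stress axis genes, 6 fell and 1 rose, against 1.29% and 1.84% of all genes, while 16 were not called and the median of the list was near 0 (-0.04). The count of 6 was 2 without WT ZT0 replicate 1 or WT ZT+2.5 replicate 4, and 3 without WT ZT0 replicate 2 or 4. It was also 3 with the replicate block and PC1. The chaperone gene fkbp5 (ENSDARG00000028396), a standard glucocorticoid target, had 168, 128, 139 and 182 CPM at ZT0 and 83.5, 27.1, 61.1 and 36.2 CPM at ZT+2.5. The groups did not overlap, but the ZT+2.5 samples differed widely from each other (log2 fold change -1.60, SE 0.376, adjusted p = 0.0614), and the call was lost in 7 of 17 alternatives, including without any WT ZT0 sample or WT ZT+2.5 replicate 3 or 4 (-1.79 to -1.47). The transcription factor gene klf9 (ENSDARG00000068194), intact in these larvae, behaved alike, with 74.2, 57.6, 54.4 and 70.7 CPM at ZT0 and 37.7, 15.3, 38.3 and 31.8 CPM at ZT+2.5 (log2 fold change -1.06, SE 0.299, adjusted p = 0.0956). Its call was lost in 10 of 17 alternatives, including without the same 6 samples (-1.18 to -0.93). In both genes replicate 2 was the lowest sample at ZT+2.5. At ZT-3, fkbp5 stood at 70.31 ± 16.4 CPM and klf9 at 49.7 ± 12.3 CPM.

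The 11-beta-hydroxylase gene cyp11c1 (ENSDARG00000042014), needed for cortisol synthesis, had 2.95, 3.26, 3.74 and 3.27 CPM at ZT0 and 1.71, 1.502, 1.53 and 1.18 CPM at ZT+2.5 (log2 fold change -1.18, SE 0.117, adjusted p = 0.000238), after 8.93 ± 1.304 CPM at ZT-3. The cortisol-inactivating enzyme gene hsd11b2 fell from 16.1 to 10.2 CPM (log2 fold change -0.66, adjusted p = 0.00153). The kinase gene sgk2b was the sixth gene that fell (log2 fold change -0.60, adjusted p = 0.0285), with overlapping groups, and was not called without PC1, WT ZT0 replicate 1 or WT ZT+2.5 replicate 4 (-0.57 to -0.49 without these samples). The mineralocorticoid receptor gene nr3c2 was the 1 member that rose (log2 fold change 0.56, adjusted p = 0.00487), which was not called without WT ZT+2.5 replicate 2 (0.47). The glucocorticoid receptor gene nr3c1 had 66.6 ± 2.64 and 75.1 ± 0.48 CPM (log2 fold change 0.17). The gluconeogenic enzyme gene pck1 (ENSDARG00000013522) had 207, 155, 112 and 116 CPM at ZT0 and 61.5, 58.7, 154 and 122 CPM at ZT+2.5, with overlap, and its call (log2 fold change -0.59, adjusted p = 0.0911) was lost in 12 of 17 alternatives, including without replicate 1, 2 or 4 of either group (-0.62 to -0.44).

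Of 32 tested immediate early genes, which mark recent stimulation of cells, 1 rose and 1 fell, against 1.84% and 1.29% of all genes. These counts depended on single samples, since 5 rose without WT ZT+2.5 replicate 2, 2 fell without WT ZT+2.5 replicate 1 and none was called without WT ZT+2.5 replicate 4. The nuclear receptor gene nr4a1 (ENSDARG00000000796) had 30.0, 29.1, 34.2 and 38.5 CPM at ZT0 and 31.7, 11.5, 13.025 and 13.6 CPM at ZT+2.5. Replicate 1 of ZT+2.5 was at the level of the ZT0 samples and the other 3 were below all of them (log2 fold change -1.004, adjusted p = 0.0923), and the call was lost in 10 of 17 alternatives, including without any WT ZT0 sample or WT ZT+2.5 replicate 3 or 4 (-1.06 to -0.95). The rise of ier2b (log2 fold change 0.55, adjusted p = 0.028) was not called without WT ZT+2.5 replicate 1 (0.37) or without WT ZT+2.5 replicate 4 (0.53). The highest log2 fold change of the list was that of npas4a, at 1.06, which was not called. The activity marker egr1 had 38.4 ± 3.97 and 52.5 ± 7.54 CPM (log2 fold change 0.44), and fosab 3.05 ± 0.84 and 4.55 ± 3.23 CPM (adjusted p = 0.499).

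**Figure D3:**
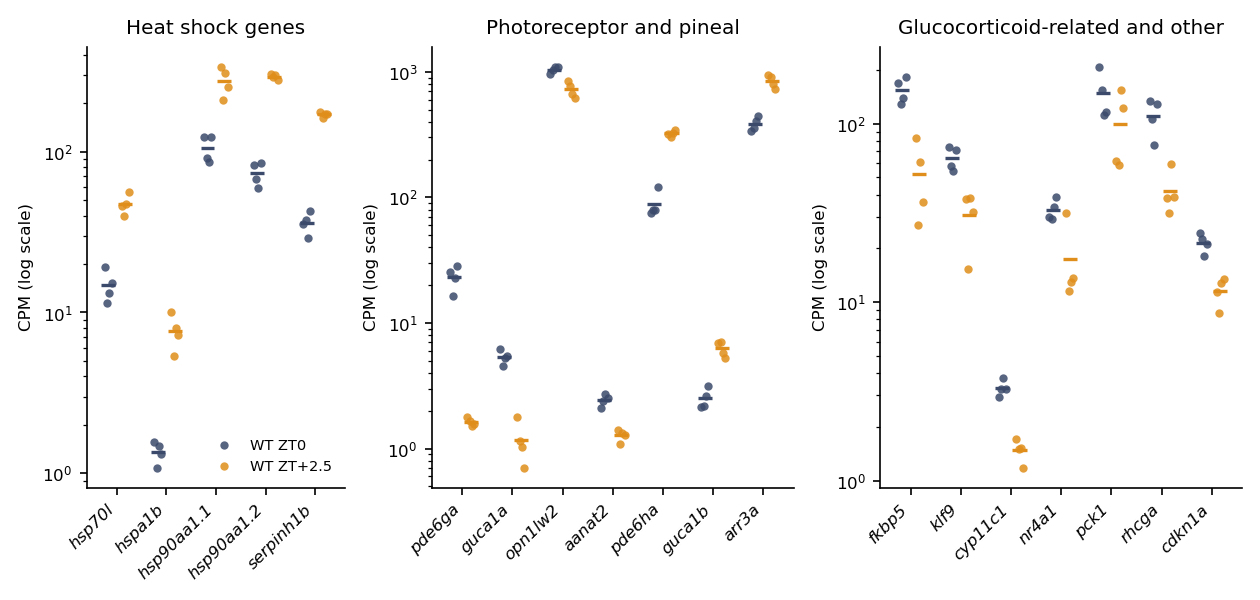
Level of each gene in CPM (log axis) in the 4 WT pools of ZT0 (blue) and of ZT+2.5 (orange), with replicates 1 to 4 from left to right and a bar at the group mean, for heat shock genes, photoreceptor and pineal genes, and glucocorticoid-related and other genes. The groups overlap for nr4a1 and pck1 and are apart for the other genes, and pde6ga fell from 23.3 to 1.64 CPM while pde6ha rose from 89.2 to 323 CPM.

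Calls in the metabolic and muscle lists are set beside the 1.84% of all tested genes that rose and the 1.29% that fell. The thioredoxin-interacting protein gene txnipb (ENSDARG00000070000), an inhibitor of glucose uptake, rose from 20.7, 21.8, 29.4 and 23.2 CPM to 65.4, 52.4, 52.0 and 50.9 CPM (log2 fold change 1.19, SE 0.103, adjusted p = 0.000236). With pck1 it was the only called member of 29 genes of gluconeogenesis and fasting. None of 27 cholesterol synthesis genes was called (median log2 fold change 0.22, and 0.088 without WT ZT0 replicate 3 or 0.12 without WT ZT+2.5 replicate 3), and the highest of them, msmo1, had overlapping groups at 18.9 ± 6.01 and 40.4 ± 16.04 CPM (adjusted p = 0.108). Of 27 antioxidant genes 2 fell, and of the muscle list of 12 the regulator myod1 rose (0.60) and mef2ca fell (-0.70). The fall of mef2ca, a muscle transcription factor gene, was from 142 to 88.8 CPM (adjusted p = 0.000341), and the rise of myod1 was not called without WT ZT0 replicate 2 (0.499).

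Several nutrient transporters fell. Of 31 amino acid and nutrient transporter genes, in a list put together after values had been seen, 5 fell and 1 rose (median log2 fold change -0.18, and -0.11 without WT ZT+2.5 replicate 1). Those that fell were slc3a2b, slc6a19a.1, slc7a7, slc7a8b and slc43a2a. The 1 that rose, slc6a18, was not called in 9 of 17 alternatives, including without any sample but WT ZT0 replicate 4 and WT ZT+2.5 replicate 2 (0.47 to 0.66). The fall of slc7a7 was lost in 6, including without replicate 4 of either group (-0.55 to -0.42). The neutral amino acid transporter gene slc6a19a.1 (ENSDARG00000018621) had 71.0, 43.7, 35.1 and 41.2 CPM at ZT0 and 12.4, 18.4, 30.4 and 27.5 CPM at ZT+2.5. The groups did not overlap, yet the fall (log2 fold change -1.095, SE 0.201, adjusted p = 0.0227) was not called without PC1, with the replicate block, or with both changes. The amino acid exporter gene slc43a2a fell from 47.2 ± 12.2 to 22.7 ± 7.25 CPM (log2 fold change -1.03, SE 0.059, adjusted p = 4.68e-06). Outside the list, the anion exchanger gene slc26a6 fell from 19.6 ± 5.41 to 9.45 ± 3.24 CPM (log2 fold change -1.04). Without PC1 the adjusted p was 0.0756 for slc43a2a and 0.0929 for slc26a6. With the replicate block in place of PC1 both lost their call (adjusted p = 0.343 and 0.384). The ammonia transporter gene rhcga (ENSDARG00000003203), also outside the list, had 133, 107, 75.8 and 128 CPM at ZT0 and 38.3, 31.6, 59.16 and 38.5 CPM at ZT+2.5 (log2 fold change -1.40, SE 0.252, adjusted p = 0.0244). This fall was not called with the replicate block, either with PC1 or in place of it (adjusted p up to 0.199). The level of rhcga at ZT-3, 30.4 ± 9.25 CPM, was nearer to that at ZT+2.5 than to that at ZT0. Other genes among the largest falls were xkr8.2, named for phospholipid scramblases (12.8 ± 0.88 and 4.37 ± 1.87 CPM), the unconventional myosin gene myo3b (13.2 ± 0.67 and 6.56 ± 0.73 CPM), the zinc finger gene zfand5a (136 ± 8.77 and 71.4 ± 7.64 CPM) and ankrd6a (8.80 ± 1.19 and 4.66 ± 0.55 CPM).

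Ribosome assembly genes were called in the lower direction only. In a list of 56 genes of ribosome biogenesis, put together after values had been seen, 12 fell and none rose, and 50 of the 56 had a log2 fold change below 0 (median -0.24). Of all 22524 tested genes, 1.29% fell and 1.84% rose, and 11601 were below 0 and 10923 above. The count of 12 was 7 without WT ZT0 replicate 1 and 6 without WT ZT0 replicate 4. The list and the count of 12 include pprc1 (ENSDARG00000090337), a coactivator gene related to regulators of mitochondrial biogenesis rather than an assembly gene. It had 71.3, 54.4, 42.0 and 62.6 CPM at ZT0 and 24.3, 21.9, 22.8 and 24.4 CPM at ZT+2.5 (log2 fold change -1.30, SE 0.153, adjusted p = 0.00297). The other genes of the list that fell had log2 fold changes from -0.67 to -0.50. Components of the small nucleolar particles that modify ribosomal RNA fell by less. Levels of nop56 (ENSDARG00000012820) were 171, 151, 138 and 181 CPM and 126, 109, 111 and 110 CPM (log2 fold change -0.50, adjusted p = 0.00419), just past the fold threshold and not called in 8 of 17 alternatives, including without WT ZT0 replicate 1 or 4 or WT ZT+2.5 replicate 2 (-0.48 to -0.43). Log2 fold changes were -0.60 for nop58 and -0.61 for dkc1, which was not called without WT ZT0 replicate 4 (-0.49), and the RNA polymerase I subunit gene polr1b had -0.59. The ribosomal protein genes themselves had no called member among 81 (median log2 fold change 0.10), and 80 of them were above 0.

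Cell division genes had small log2 fold changes, nearly all above 0, where 10923 of all 22524 tested genes were above 0. All 44 tested DNA replication genes had log2 fold changes above 0 (median 0.26), and 31 of them passed the adjusted p, against 7.31% of all genes. Only cdc45 also passed the fold threshold (0.51), and not without WT ZT0 replicate 1 or 4 or WT ZT+2.5 replicate 1 (0.44 to 0.49). Of 47 mitosis genes, 46 were above 0 (median 0.18) and 5 passed the adjusted p. Without WT ZT0 replicate 4, 37 of the 47 were above 0 and the median was 0.059. The cell cycle inhibitor gene cdkn1a (ENSDARG00000076554) fell, from 24.3, 22.7, 18.1 and 21.2 CPM to 11.5, 8.72, 12.8 and 13.4 CPM (log2 fold change -0.89, SE 0.098, adjusted p = 0.000598). At ZT-3 it stood at 35.1 ± 2.54 CPM.

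Tissue gene lists gave no or few calls. Of all tested genes 1.84% rose and 1.29% fell, so lists of this size would hold few calls in any case. None of 18 pancreatic digestive enzyme, 22 intestinal, 29 neuronal, 30 fast muscle, 51 lens, 21 neutrophil and macrophage, 14 T cell and thymus, 23 cartilage and 43 proteasome genes was called. The lens genes still lay mostly above 0, with 47 of 51 positive, against 10923 of all 22524 tested genes. Their median log2 fold change was 0.23, but none passed the adjusted p alone. When 1 sample was left out, 2 intestinal genes (without WT ZT0 replicate 4), 1 pancreatic (without WT ZT+2.5 replicate 1), 1 proteasome (without WT ZT+2.5 replicate 2) and 1 neutrophil and macrophage gene (without WT ZT0 replicate 4) were called. Of 31 liver plasma protein genes, rbp4 alone rose, where 3 rose without WT ZT+2.5 replicate 1. Of 9 globin genes hbae5 alone rose (1.597, 4.04, 3.60 and 2.13 CPM at ZT0, and 5.65, 11.5, 9.31 and 5.92 CPM at ZT+2.5, adjusted p = 0.08), a call lost in 8 of 17 alternatives, including without WT ZT0 replicate 1, 3 or 4 or WT ZT+2.5 replicate 2, 3 or 4 (1.26 to 1.66). Among 110 subunits and assembly factors of the respiratory chain, sdhaf1, sdhaf2 and cox17 rose, cox17 not without WT ZT0 replicate 3 (0.49), and 5 rose without WT ZT+2.5 replicate 2. Summed levels of the marker genes of 8 tissues had overlapping ranges at the 2 times in every tissue, with the widest in pancreas (786 to 3170 CPM at ZT0 and 606 to 3321 CPM at ZT+2.5) and liver (3094 to 4314 and 1663 to 4856 CPM). All these markers were detected in all 8 samples except 1 of the 5 erythrocyte markers, and no marker was called. The chart of all lists sets these shares side by side.

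**Figure D4:**
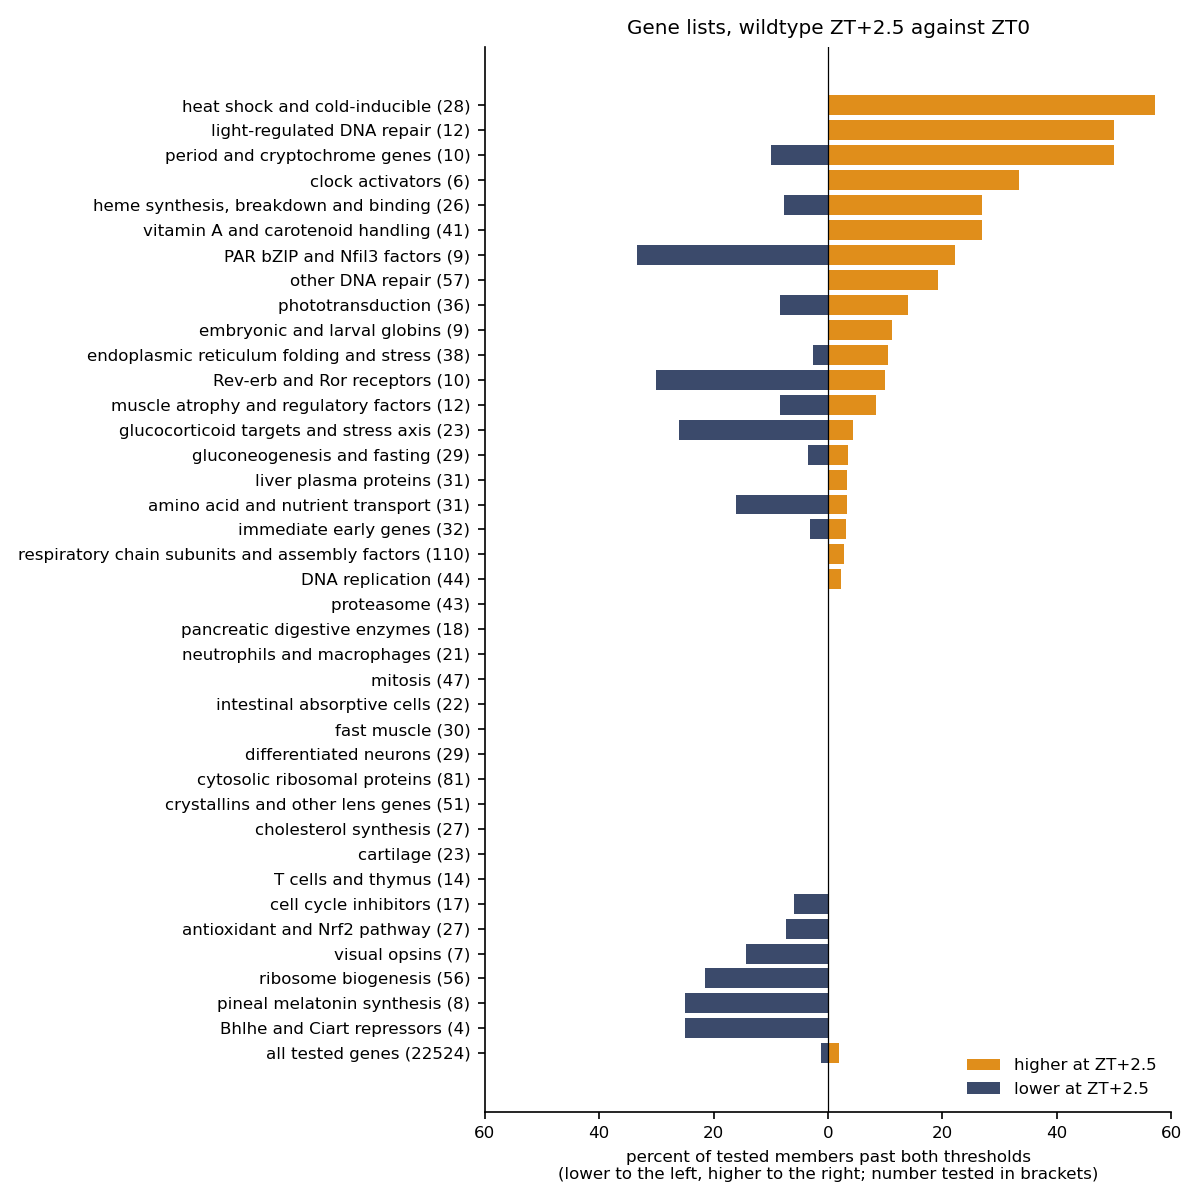
Percent of the tested members of each gene list that were past both thresholds at WT ZT+2.5 against ZT0, with lower to the left and higher to the right. The bottom bar is the share of all 22524 tested genes (1.84% higher and 1.29% lower), and the longest bars belong to heat shock genes, 16 of 28 higher, light-regulated DNA repair genes, 6 of 12 higher, and Period and Cryptochrome genes, 5 of 10 higher. The lists of ribosome biogenesis, heme, other DNA repair, vitamin A and carotenoid handling, and amino acid and nutrient transport were put together after values had been seen. The other lists were also chosen with earlier results of these data known. All bars are therefore only descriptive and are no test against the bottom bar.

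The WT levels at ZT-3 are given beside those of the other times with no test, since that step would share the ZT0 samples. For lonrf1, cry5 and hsp90aa1.2 the means at ZT-3 were 28.8 ± 1.83, 3.42 ± 0.41 and 54.9 ± 4.43 CPM, below those of ZT0 and much nearer to them than to those of ZT+2.5. For per2, cry1a and pde6ha the ZT-3 means were 4.81 ± 0.25, 25.4 ± 3.30 and 28.6 ± 2.22 CPM. Each of these means was below the gene's lowest ZT0 sample, as were those of lonrf1, cry5 and hsp90aa1.2. Mean levels of dbpb, nr1d4b, cyp11c1, aanat2 and cdkn1a were lower at each later time. Mean levels of fkbp5 and klf9 were highest at ZT0.

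The fibroblast growth factor receptor gene fgfr1a (ENSDARG00000011027) had 42.4 ± 1.73 CPM at ZT0 and 38.3 ± 1.05 CPM at ZT+2.5, and its log2 fold change of -0.15 was under the fold threshold (adjusted p = 0.0771).

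**Figure D5:**
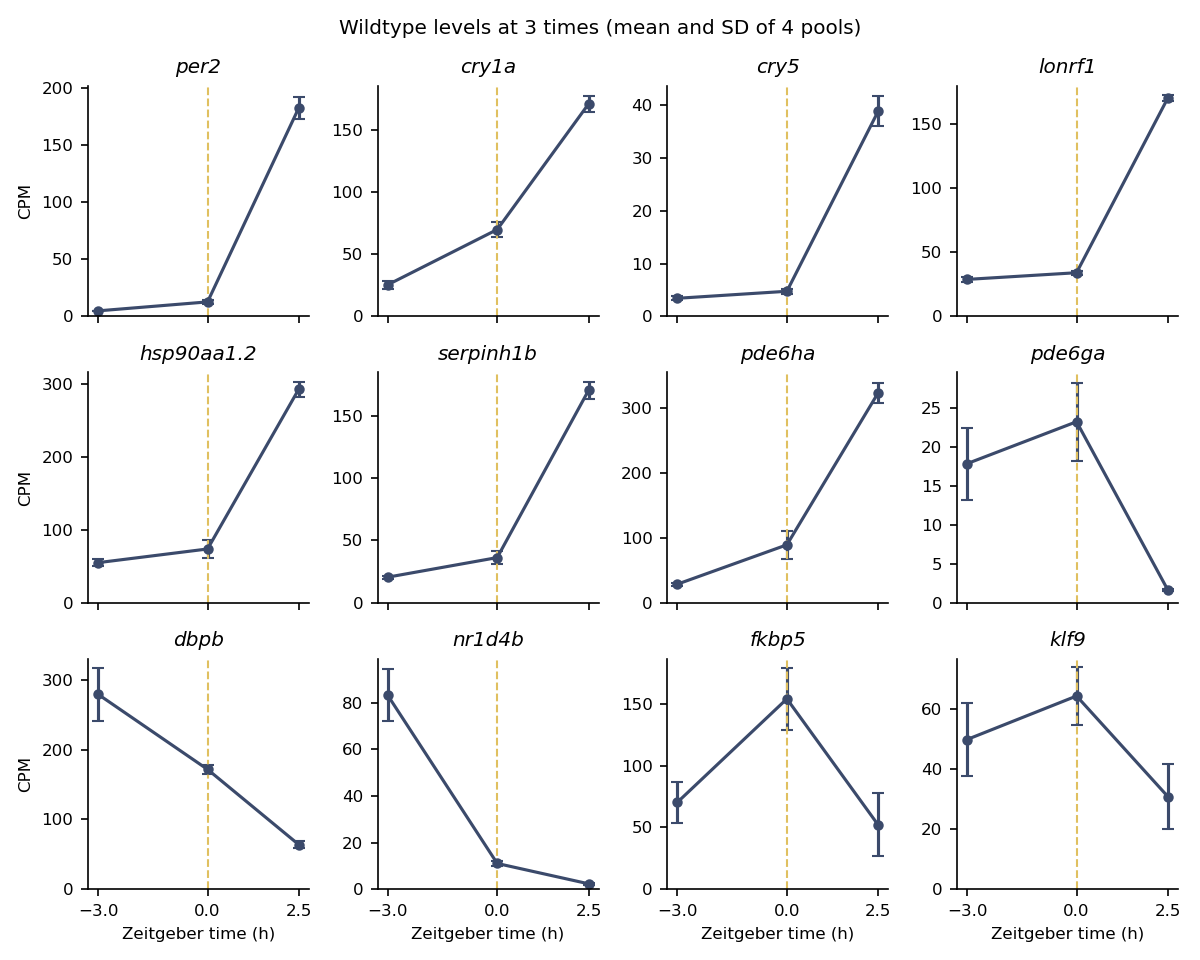
Mean CPM of 12 genes in WT at ZT-3, ZT0 and ZT+2.5 (points), with SD over 4 pools as error bars, a linear axis from 0 and a dashed line at the onset of light. The means of per2 were 4.81, 12.7 and 183 CPM, those of nr1d4b 83.3, 11.01 and 2.28 CPM, and those of fkbp5 70.31, 154 and 52.0 CPM.

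The same step was measured in klf9-/- larvae, in 8 samples that the WT comparison did not use. There, 463 of 22377 genes were higher (2.07%) and 345 lower (1.54%) at ZT+2.5. Of the 414 genes that rose in WT, 410 had a value in klf9-/-, of which 397 had a positive log2 fold change and 265 (64.6%) passed both thresholds in the same direction. Of the 290 that fell in WT, 287 had a value, of which 273 were negative and 164 (57.1%) passed in the same direction. A single gene passed in the opposite direction, a gene listed without a symbol of its own (ENSDARG00000081369), with log2 fold changes of -0.56 in WT and 0.51 in klf9-/-. Its WT groups overlapped, and its WT call was lost without PC1 (adjusted p = 0.468) and without WT ZT0 replicate 2 or WT ZT+2.5 replicate 2 (-0.495 to -0.479). The median log2 fold change of these genes was 0.73 in WT and 0.64 in klf9-/- for those that rose, and -0.65 and -0.59 for those that fell. The genes were picked by their WT values, which by itself makes larger medians in WT likely. The medians therefore cannot show whether the step was weaker in klf9-/-. For per2 the log2 fold change in klf9-/- was 3.77, for cry5 2.71, for hsp90aa1.2 1.81 and for pde6ga -4.44.

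A test of the difference between the 2 genotypes' steps, in 1 fit with 4 groups, called 1 of 22931 genes (0.00436%) at an adjusted p of at most 0.1 (789 genes had an unadjusted p under 0.05). It was si:dkey-18a10.3, whose log2 fold change was 3.08 in WT and 2.02 in klf9-/-, a difference of -1.05 (SE 0.143, adjusted p = 0.0398). Over the alternatives its adjusted p ranged from 4.53e-07 to 0.288, and 0 to 2 genes were called when any 1 of the 16 samples was left out. Its adjusted p exceeded 0.1 in 10 of those 16 fits (up to 0.171), namely without replicate 1 or 3 of WT ZT0, replicate 1, 3 or 4 of WT ZT+2.5, replicate 3 or 4 of klf9-/- ZT0, or replicate 1, 3 or 4 of klf9-/- ZT+2.5. With DESeq2, 20 genes were called. The next smallest p-values, for ENSDARG00000081369 (adjusted p = 0.193), tmprss4b, p4ha1b and rx1, did not pass. All 3 of the last genes rose in WT, by log2 fold changes of 0.77, 0.57 and 0.996.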

How the data were processed

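RNA was column-purified from pools of 6 larvae and sequenced single-end. The authors trimmed reads with Trim Galore 0.6.5, aligned them with STAR 2.7.5c and deposited expected counts per gene from RSEM 1.3.3, summed over genes with the same symbol. They also deposited regularized log2 values from DESeq2 1.30.1 in R 4.0.3 (25362 genes). Strand use in counting is not given in the sources used here, so overlapping or antisense genes may share reads. Deposited comparison tables hold the fold changes and p-values of the authors' own comparisons and were not used.

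Here, expected counts of 31242 genes (18.0% not whole) were rounded, filtered with filterByExpr by group, scaled by TMM (factors 0.965 to 1.06) and tested with edgeR 4.0.16 in R 4.3.3 (robust quasi-likelihood fit of the 8 samples, PC1 score as covariate, 5 residual degrees of freedom). PC1, with 21.7% of the variance, was recomputed from Z-transformed log2 values of all 24 samples. The study gave a larger share for its PC1, so the score used here may differ from the study's. SE is the log2 fold change divided by the root of F. CPM used TMM factors over all 24 samples. Replicates differed by 14.8 to 89.0 times counting variance (12 pairs), so no pair agreed within counting noise. The labels do not state whether pools came from separate clutches, so p-values measure the spread between pools. The genes named include the 10 smallest p-values. Among genes without a provisional symbol, they include the 15 largest rises and 15 largest falls at a mean of at least 5 CPM without overlap. They also include klf9, cry1a, cry4, fkbp5, per1a and fgfr1a, the 5 smallest interaction p-values and the 3 most abundant genes with provisional symbols in each direction. Many called and extreme members of lists are named, but not all. Some list members that were neither called nor extreme are named beside them. The members and lists were chosen with earlier results of these data known. Promoter sequences were not analysed here. Scripts were tested on simulated data. Alternatives were other scaling, no filter, other PC1 choices, other sample sets, DESeq2 1.42.0, a replicate block, other thresholds and leaving out each sample.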

Additional observations from a re-analysis of the deposited data

Results flagged for a closer look

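In 5 genes, 1 sample stood far from the other 3 of its group. These were found among 120 groups of 4 samples (60 genes at 2 times), where chance flags about 1 in 20 groups. At WT ZT0, replicate 4 was the highest sample for bhlhe41 (127.6 CPM, where the others had 108 to 111 CPM) and for pde6ha (121.8 CPM, where the others had 75.6 to 79.8 CPM). At WT ZT+2.5, replicate 1 was the highest for txnipb (65.4 CPM against 50.9 to 52.4 CPM), nop56 (125.8 CPM against 109 to 111 CPM) and nr4a1 (31.7 CPM against 11.5 to 13.6 CPM). For bhlhe41, pde6ha and txnipb the call held without each of the 8 samples in turn.

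The step from ZT0 to ZT+2.5 of si:dkey-18a10.3 differed between genotypes by -1.05 on the log2 scale (klf9-/- minus WT, adjusted p = 0.0398 in edgeR's interaction test). The gene rose in both genotypes, and its adjusted p exceeded 0.1 in 10 of the 16 fits that left out 1 sample.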

How the results depend on the processing

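None of the 148 called genes named or counted by list changed direction in any of 17 alternatives, and no called gene of the comparison did. All 148 kept their call with DESeq2's size factors and with DESeq2, 128 without PC1, 134 with the replicate block and PC1, 90 with the block in place of PC1, and 125 to 139 when each sample was left out (lowest without WT ZT+2.5 replicate 4). Without PC1, 331 genes were higher and 195 lower, of which 324 and 192 were also called with it. Leaving out each sample gave 337 to 434 genes higher and 224 to 309 lower, both lowest without WT ZT+2.5 replicate 4. The numbers of calls moved by more than 1.5 times with no fold threshold (1646 higher and 1400 lower), with a log2 fold change of at least 1 (106 and 41) and with a replicate block in place of PC1 (186 and 76). Deviations of samples with the same number were correlated at -0.40 to -0.08 between the groups. They were not corrected for PC1, whose scores ran in opposite order by number, so they cannot show whether the numbers pair the samples. The block with PC1 gave 374 higher and 249 lower. For the difference between genotypes, DESeq2 called 20 genes, the replicate block with PC1 called 0 (776 at an unadjusted p under 0.05), and leaving out each sample gave 0 to 2.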
